A study of Mus musculus with 36 samples.

Results

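Lhx9, Emx2, Lhx2, Tcf21, Foxd1, Lhx1, Pax2 and Pax8 encode 8 transcription factors of the early gonad and its neighbouring tissues, and their RNA was followed through germ cells and supporting cells of XX and XY fetal mouse gonads. The genes were taken as a set named for their roles, with earlier results of these data known, and each was read from the probe set that the platform annotation assigns to that symbol alone. All 8 were found, each with 1 such probe set, among 19938 genes with a probe set of 1 symbol, and all 8 were among the 17571 genes tested. The set mixes classes: Lhx9, Emx2, Lhx2 and Lhx1 are homeobox genes, Foxd1 is a forkhead gene, Tcf21 is a basic helix-loop-helix gene, and Pax2 and Pax8 are paired-box genes. The samples were 36 Affymetrix Mouse Gene 1.0 ST arrays of sorted cells, 3 for each combination of cell type, sex and stage, and 1 array was left out for the reason given further on.

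The labels place stage TS13 ahead of sexual differentiation, TS24 within it and TS34 after it. Germ cells of both sexes and all 3 stages carried an Oct4 reporter and descended from C57BL/6NJ on a mixed background. XX supporting cells at all 3 stages and XY supporting cells at TS13 came from Tg(Sry-EGFP)92Ei animals bred from CD-1, a line in which an Sry transgene drives a green fluorescent protein, and the sort therefore selected cells in which that transgene was active, in XX gonads too. XY supporting cells at TS24 and TS34 came instead from Tg(Sox9-cre/ERT2)1Msan/J animals bred from C57BL/6, with Sox9 as the gene reported. In supporting cells, sex and mouse line therefore cannot be told apart at TS24 and TS34, the XY step from TS13 to TS24 changes the line as well as the stage, and germ and supporting cells always differ in line. The XX steps and the sex comparison at TS13 stay within 1 line. Gonads were pooled by sex before sorting. Nothing in the labels states that the replicates of a group came from different pools, and the p-values reflect just the scatter among these samples, part or all of which may be technical. Interstitial and stromal samples were not analysed here.

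The gonad forms as a thickening of the coelomic epithelium on the mesonephros, and the cells of this primordium can become either Sertoli cells of a testis or pregranulosa cells of an ovary. Lhx9 and Emx2 are known as factors without which the mouse gonad does not form properly, and LHX9 is known to act upstream of the steroidogenic factor gene Nr5a1. Foxd1 and Tcf21 are known from mesenchymal and stromal progenitors of the urogenital system, and Lhx1, Pax2 and Pax8 from the epithelium of the nephric duct, mesonephros and kidney. LIM-homeodomain proteins such as LHX9, LHX2 and LHX1 act in complexes held together by LIM-domain-binding cofactors, and LIM-only proteins compete for those cofactors.

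Values are the deposited log2 expression values, so a difference of 1 is 2-fold, and array medians ran from 6.41 to 6.84. Differences are given ± standard error (SE) from 1 limma model over 35 arrays, and "called" means p under 0.05 after Benjamini-Hochberg adjustment across the 17571 tested genes. Germ and supporting markers followed the labels on 35 arrays: the mean of 8 germ markers was 9.64 to 10.75 on germ arrays and 5.78 to 6.74 on supporting arrays, and that of 6 supporting markers was 9.47 to 10.24 on supporting arrays and 6.73 to 7.56 on germ arrays. 1 library, labelled germ XX TS24 replicate 3, did not match that label, with Pou5f1, the gene of the Oct4 reporter, at 5.07 and the somatic factor gene Wt1 at 11.19. It was left out of every result unless stated, which leaves 2 arrays in that group. These are bulk samples, in which fewer cells of a type and less RNA per cell cannot be told apart.

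The 4 genes whose level changed most across the groups were Lhx9, Emx2, Foxd1 and Lhx1. The 250 bases upstream of their start sites are shown. The first 3 were called lower in XY supporting cells at TS13, and Lhx1 was not. At TS24 and TS34 Lhx9 and Emx2 were called lower there, but Foxd1 was not. The sequences are from RefSeq on GRCm38.p6, 5′ to 3′ on the gene's strand: Lhx9 at chr1:138842445-138842694 (minus strand), Emx2 at chr19:59458440-59458689 (plus), Foxd1 at chr13:98353995-98354244 (plus) and Lhx1 at chr11:84525535-84525784 (minus). The Lhx9 window lies inside the annotated gene, which runs from 138825186 to 138848839, so it precedes an internal start site. Capitals mark the matches found on either strand to the motifs named after the sequences.
Lhx9: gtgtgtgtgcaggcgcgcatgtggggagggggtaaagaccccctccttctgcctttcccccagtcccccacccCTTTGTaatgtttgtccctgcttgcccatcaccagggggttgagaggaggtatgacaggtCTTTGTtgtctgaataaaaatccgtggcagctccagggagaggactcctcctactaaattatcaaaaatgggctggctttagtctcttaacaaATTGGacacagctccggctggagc
Emx2: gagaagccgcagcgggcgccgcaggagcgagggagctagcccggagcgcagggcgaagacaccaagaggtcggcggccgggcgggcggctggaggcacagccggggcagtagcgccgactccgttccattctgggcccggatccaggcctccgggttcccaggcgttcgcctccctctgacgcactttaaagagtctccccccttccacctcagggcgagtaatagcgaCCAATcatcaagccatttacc
Foxd1: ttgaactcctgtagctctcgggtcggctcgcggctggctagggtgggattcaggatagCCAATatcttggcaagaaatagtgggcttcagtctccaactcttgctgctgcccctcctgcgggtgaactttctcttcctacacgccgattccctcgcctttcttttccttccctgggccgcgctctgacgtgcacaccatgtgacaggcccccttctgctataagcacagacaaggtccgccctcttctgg
Lhx1: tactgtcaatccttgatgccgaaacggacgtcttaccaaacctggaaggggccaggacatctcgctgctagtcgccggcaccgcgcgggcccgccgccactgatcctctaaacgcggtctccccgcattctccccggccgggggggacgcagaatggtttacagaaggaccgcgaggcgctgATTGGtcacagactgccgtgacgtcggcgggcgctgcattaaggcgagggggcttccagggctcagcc

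Both strands of each 250-base window were searched for 6 motifs. TAATTA is the core bound by many homeodomains, AGATAA is a form of the GATA factor site, and AAGGTCA is a nuclear receptor half-site. ACAAAG is a string of SOX and SRY-type factors, and AATNNACA is a loose pattern that takes in some forkhead sites. CCAAT, the CCAAT box, was added after the sequences were read. The Lhx9 window held ACAAAG on the minus strand at positions -177 and -117 from the start site, and a CCAAT box on the minus strand at -24. Of 32851 mouse promoter windows of this length, 16.5% held ACAAAG at least once. The windows of Emx2 (-21), Foxd1 (-192) and Lhx1 (-68, minus strand) each held 1 CCAAT box and no other of the 6, and 33.8% of all windows held one. TAATTA (4.84% of all windows), AGATAA (9.99%), AAGGTCA (4.08%) and AATNNACA (10.9%) matched in none of these 4 windows. Other forms of GATA, forkhead and the other sites were not searched, so their presence in these windows was not tested. The matches are of letters, not sites at which a factor was measured. G and C made up 53.6% of the Lhx9 window, 67.2% of the Emx2 window, 57.2% of the Foxd1 window and 64.8% of the Lhx1 window, against a median of 52.4% over all windows.

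**Figure D1:**
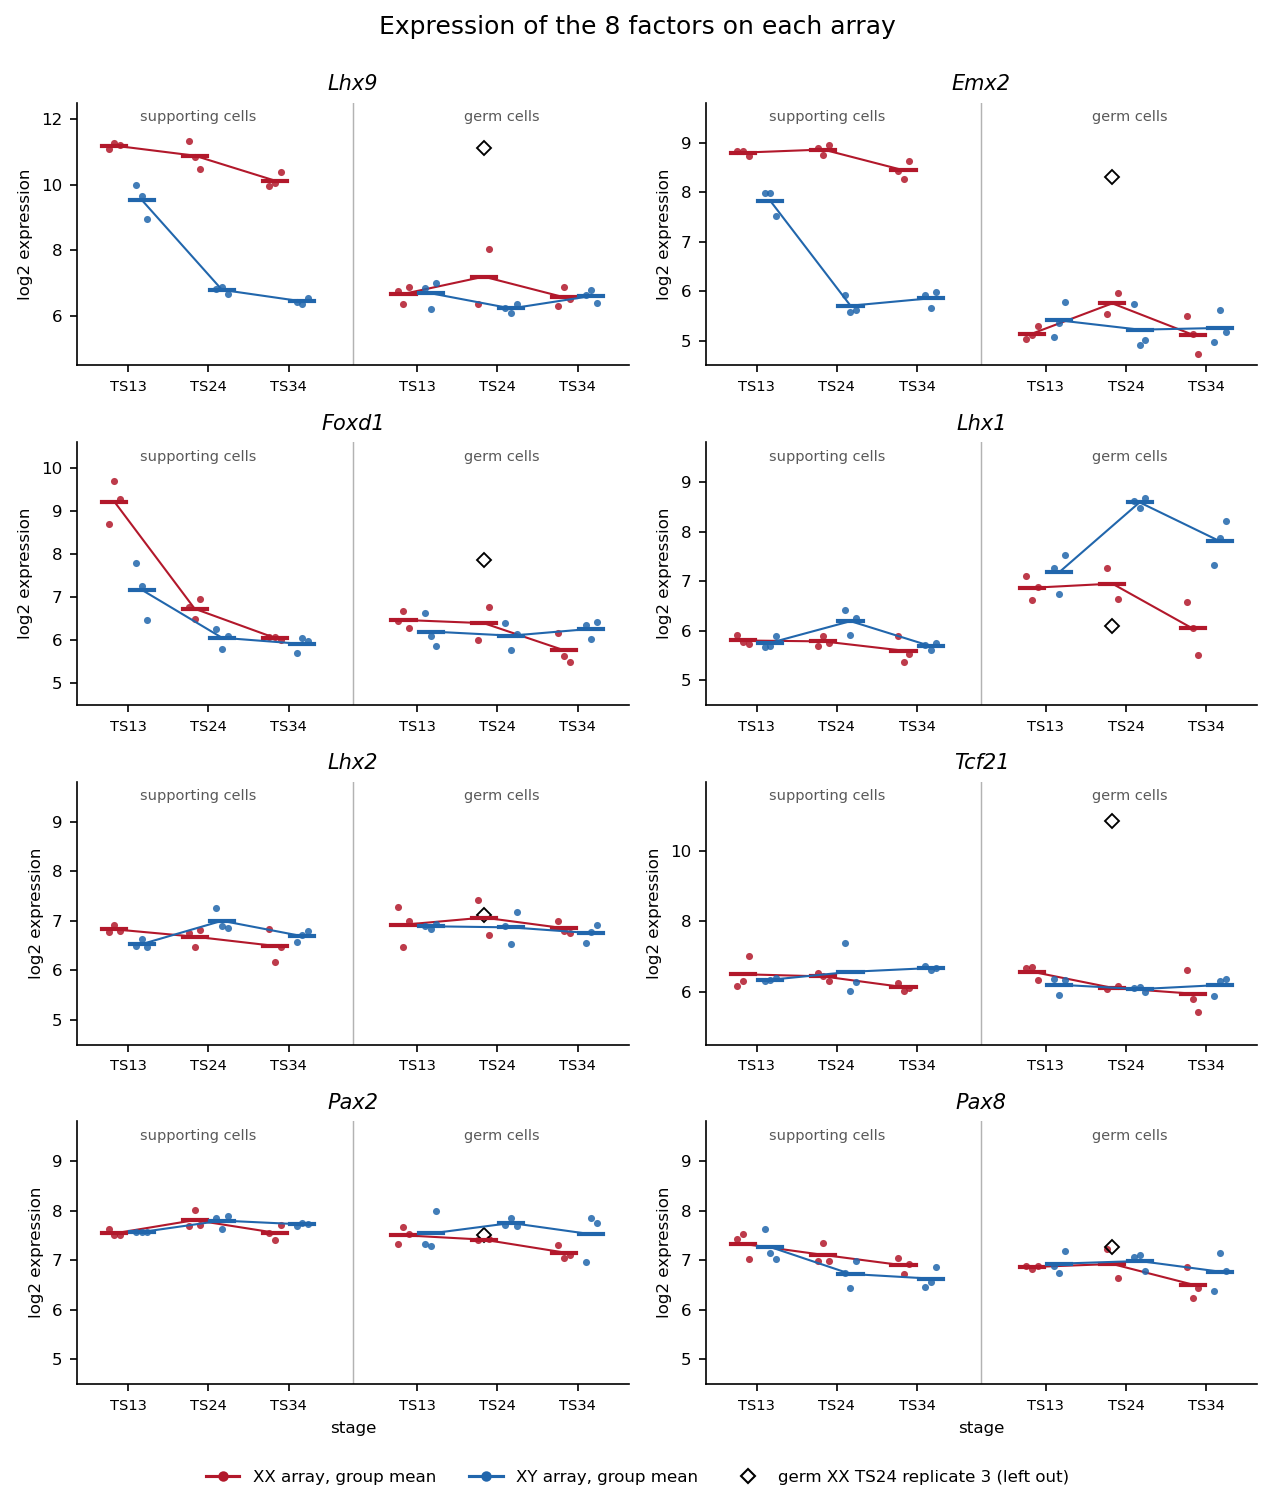
Log2 expression of the 8 genes on each array (vertical axis) by stage (horizontal axis), with supporting cells at the left of each panel and germ cells at the right; points are arrays, short bars are group means joined by lines, red is XX, blue is XY, and the open diamond is the left-out library labelled germ XX TS24 replicate 3. Lhx9 and Emx2 stay high in XX supporting cells and are low in XY supporting cells from TS24, Foxd1 is highest in XX supporting cells at TS13 (mean 9.23), and Lhx1 is highest in XY germ cells at TS24, with a mean of 8.59.

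Lhx9, which codes for a LIM-homeodomain factor of the genital ridge, was high in XX supporting cells throughout and low in XY supporting cells once differentiation had begun. At TS13 the XX supporting arrays read 11.09, 11.26 and 11.21 and the XY arrays 9.99, 9.66 and 8.96. At TS24 the XX arrays read 11.32, 10.85 and 10.48 and the XY arrays 6.84, 6.88 and 6.68. At TS34 the XX arrays read 9.96, 10.04 and 10.38 and the XY arrays 6.42, 6.36 and 6.56. The sexes did not overlap at any of the 3 stages, and at TS24 and TS34 every XY array lay more than 3 log2 units under every XX array of its stage. XY was lower than XX by -1.65 ± 0.26 at TS13 (3.14-fold, adjusted p = 1.41e-05, n = 3 and 3), by -4.08 ± 0.26 at TS24 (16.9-fold, adjusted p = 6.4e-18) and by -3.67 ± 0.26 at TS34 (12.8-fold, adjusted p = 2.51e-16). At the later 2 stages sex and mouse line cannot be told apart. The difference grew from TS13 to TS34 by -2.02 ± 0.37 (adjusted p = 0.000132). With all 36 arrays in the fit the TS13 difference had the same size but an adjusted p of 0.103, and its growth an adjusted p of 0.171, with the added library counted in the spread that all groups share.

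Emx2, which codes for a homeodomain factor needed for the urogenital epithelium, had the same shape on a separate probe set. At TS13 the XX supporting arrays read 8.84, 8.82 and 8.74 and the XY arrays 7.99, 7.98 and 7.51. At TS24 the XX arrays read 8.89, 8.74 and 8.96 and the XY arrays 5.93, 5.57 and 5.62. At TS34 the XX arrays read 8.42, 8.27 and 8.63 and the XY arrays 5.93, 5.67 and 5.97. Here too the sexes were apart at each stage, and the XY arrays of TS24 and TS34 reached down to levels also seen in germ cells. XY was lower by -0.97 ± 0.22 at TS13 (1.96-fold, adjusted p = 0.0027), by -3.15 ± 0.22 at TS24 (8.90-fold, adjusted p = 7.08e-17) and by -2.58 ± 0.22 at TS34 (6.00-fold, adjusted p = 6.22e-14). Among the 12 group means of Lhx9 the top 4 were the XX supporting groups (11.19, 10.88 and 10.12) and XY supporting cells at TS13 (9.54), and the next, XX germ cells at TS24, stood at 7.20. Emx2 had the same 4 groups on top, at 8.86 (XX TS24), 8.80, 8.44 and 7.83, and then XY supporting cells at TS34 at 5.86. For both genes the arrays of the fourth and the following group did not overlap, and the 8 lower groups overlapped with their neighbours in all but 1 case, XY supporting cells at TS34 against XY germ cells at TS24 for Lhx9. The growth of the Emx2 difference from TS13 to TS34 was -1.61 ± 0.31 (adjusted p = 0.000231). The TS13 call was lost without supporting XY TS13 replicate 3, the lowest of its group (-0.81, adjusted p = 0.0507), and with all 36 arrays (adjusted p = 0.232), where the growth had an adjusted p of 0.0817.

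Foxd1, a forkhead gene of renal and adrenogonadal stromal progenitors, was high at the first stage and highest in XX. At TS13 the XX supporting arrays read 8.70, 9.70 and 9.28 and the XY arrays 7.79, 7.27 and 6.47. At TS24 the XX arrays read 6.77, 6.49 and 6.95 and the XY arrays 6.26, 5.81 and 6.11, and at TS34 all 6 supporting arrays lay between 5.71 and 6.09. The 3 XX arrays at TS13 were the only ones of the 35 on which Foxd1 lay in the upper quartile of all probe sets. XY was lower at TS13 by -2.05 ± 0.25 (4.14-fold, adjusted p = 5.35e-08), a comparison within 1 mouse line. At TS24 the arrays of the sexes were still apart, at -0.67 ± 0.25 without a call (adjusted p = 0.0627), and at TS34 they overlapped, with a difference of -0.14 and a 95% interval of -0.65 to 0.37. The TS24 difference was called without supporting XX TS24 replicate 2 (-0.80, adjusted p = 0.049). The sex difference shrank from TS13 to TS34 by 1.91 ± 0.36 (adjusted p = 0.000173), opposite in sign to the changes of Lhx9 and Emx2. By TS34 the supporting means of Foxd1 were 6.06 in XX and 5.92 in XY, within its germ cell group means of 5.77 to 6.48. The shrinking difference therefore cannot be told apart from the fall of the gene in both sexes.

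Counted over the set, Lhx9, Emx2 and Foxd1 were lower in XY supporting cells at TS13, 3 of 8 against 3.77% of all genes called in either direction. At TS24 the count was 2 of 8 (15.3% of all genes) and at TS34 2 of 8 (14.0%), Lhx9 and Emx2 each time, and no member was called higher in XY at any of the 3 stages. Over the 3 stages the members had median differences of -0.23, -0.20 and -0.02, against -0.07, 0.04 and -0.01 over all genes tested. The change of the sex difference from TS13 to TS34 was called for 3 of 8 members (4.88% of all genes). Lhx1, Lhx2, Tcf21, Pax2 and Pax8 had no called sex difference in supporting cells, and their estimates over the 3 stages ran from -0.39 for Pax8 at TS24 to 0.54 for Tcf21 at TS34.

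**Figure D2:**
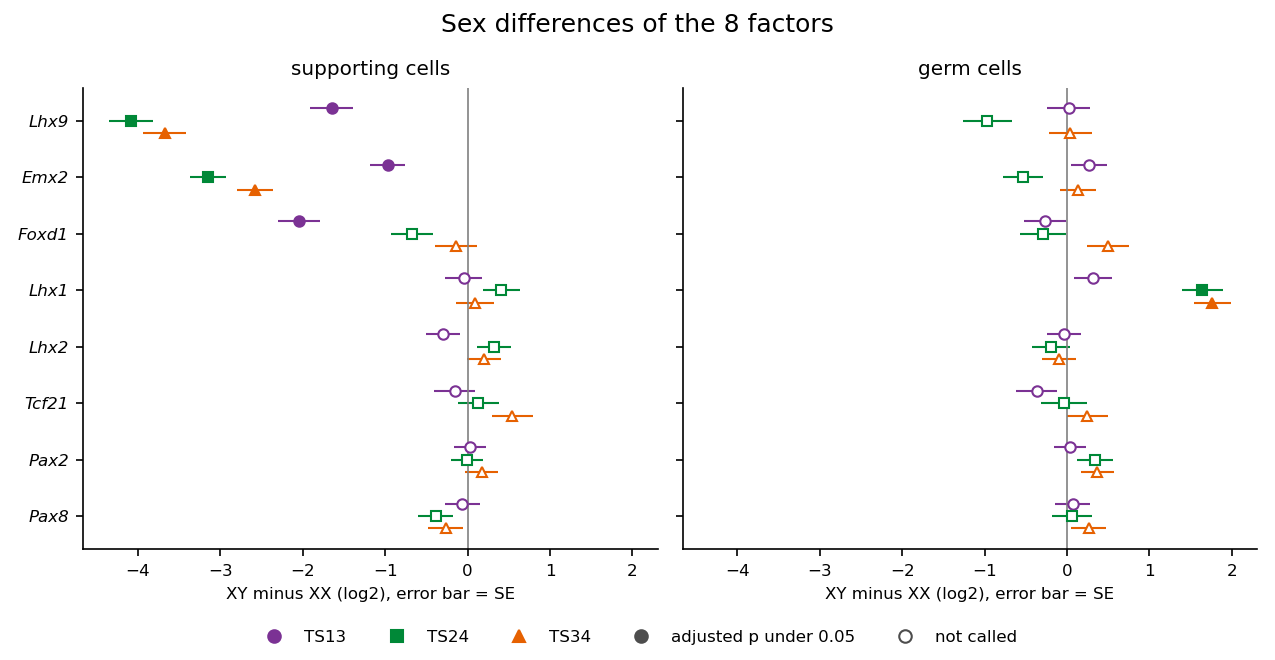
XY minus XX difference in log2 expression (horizontal axis, error bar = SE) for each gene (vertical axis) in supporting cells (left) and germ cells (right); purple circles are TS13, green squares TS24, orange triangles TS34, and filled symbols mark an adjusted p under 0.05. Lhx9 and Emx2 stand far to the left in supporting cells, Foxd1 at TS13 only, and Lhx1 to the right in germ cells at TS24 and TS34.

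Followed by stage, the 3 genes separated. In XX supporting cells Lhx9 dropped by 1.07 ± 0.26 from TS13 to TS34 (adjusted p = 0.00624; 0.512 with all 36 arrays), while Emx2 had -0.36 ± 0.22 over the same interval and was not called (95% interval -0.79 to 0.08). In XY supporting cells Lhx9 dropped by 2.74 ± 0.26 from TS13 to TS24 (6.67-fold, adjusted p = 1.86e-11) and Emx2 by 2.12 ± 0.22 (4.35-fold, adjusted p = 1.31e-10). That step crosses from the Sry-EGFP to the Sox9 line, so stage and line cannot be told apart in it. Between TS24 and TS34, within the Sox9 line, Lhx9 moved by -0.35 and Emx2 by 0.15, neither called. In XX, Foxd1 fell by 2.49 ± 0.25 from TS13 to TS24 (5.61-fold, adjusted p = 3.1e-10), and in XY it fell by 1.12 ± 0.25 (2.17-fold, adjusted p = 0.00104). Over TS13 to TS34 it fell by 3.17 ± 0.25 in XX (8.99-fold, adjusted p = 5.59e-14) and fell by 1.26 ± 0.25 in XY (2.39-fold, adjusted p = 0.000261). The XX decline of Foxd1 took place within 1 line.

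In counts, 1 of 8 members changed from TS13 to TS24 in XX supporting cells (Foxd1, 3.36% of all genes) and 2 of 8 from TS13 to TS34 (Lhx9 and Foxd1, 4.64%). In XY supporting cells 3 of 8 fell from TS13 to TS24 (16.8%) and 4 of 8 from TS13 to TS34 (10.0%), the fourth being Pax8. The median member difference from TS13 to TS24 in XY was -0.16 where all genes had 0.22. Quantile normalization, which makes the arrays alike in distribution, brought the value over all genes to 0.01. What the 0.22 came from was not tested. From TS24 to TS34 limma called 0 of 8 in XX (0.643% of all genes) and 0 of 8 in XY (1.06%). At an unadjusted p under 0.05 the counts were 2 in XX, Lhx9 at -0.76 and Foxd1 at -0.68, and 1 in XY, Lhx1 at -0.51.

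In germ cells the gene that moved was Lhx1, a LIM-homeodomain gene known from the node, the nephric duct and the kidney. At TS13 the XX germ arrays read 7.10, 6.62 and 6.88 and the XY arrays 7.27, 6.75 and 7.53. At TS24 the XX arrays read 7.26 and 6.64 and the XY arrays 8.62, 8.48 and 8.68, and at TS34 the XX arrays read 6.58, 6.05 and 5.50 and the XY arrays 7.33, 7.87 and 8.22. The sexes overlapped at TS13 and not at TS24 or TS34, and all supporting arrays lay between 5.38 and 6.41. XY was higher than XX by 1.64 ± 0.25 at TS24 (3.12-fold, adjusted p = 2.19e-05, n = 3 and 2) and by 1.76 ± 0.23 at TS34 (3.39-fold, adjusted p = 7.42e-08), and the difference at TS13 was 0.32 with a 95% interval of -0.14 to 0.77. The sex difference grew from TS13 to TS34 by 1.45 ± 0.32 (adjusted p = 0.00348).

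In XY germ cells Lhx1 rose by 1.41 ± 0.23 from TS13 to TS24 (2.66-fold, adjusted p = 4.78e-05). It then fell by 0.79 ± 0.23 to TS34 (adjusted p = 0.0424), a call lost under 7 of the 15 alternative settings run for it, with adjusted p from 0.0158 to 0.438. The net XY change from TS13 to TS34 was 0.62 ± 0.23 (adjusted p = 0.0823) and was called under quantile normalization (0.66, adjusted p = 0.00976), under median centring (0.65, adjusted p = 0.0118), without germ XY TS13 replicate 3 (0.80, adjusted p = 0.0451) and without germ XY TS34 replicate 1 (0.86, adjusted p = 0.0184). In XX germ cells Lhx1 fell by 0.91 ± 0.25 from TS24 to TS34 (adjusted p = 0.0173) and by 0.82 ± 0.23 from TS13 to TS34 (adjusted p = 0.00657). Both XX calls were lost without germ XX TS34 replicate 3, the lowest array at 5.50 (adjusted p = 0.203 and 0.14), the first also without germ XX TS24 replicate 1 (adjusted p = 0.272) and with all 36 arrays (adjusted p = 0.0901), and the second without germ XX TS13 replicate 1 (adjusted p = 0.0555).

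The other members gave few calls in germ cells. In the sex comparisons limma called 0 of 8 members at TS13, where 0.0285% of all genes were called and 0 members had an unadjusted p under 0.05. Lhx1 was the 1 of 8 at TS24 (1.96%) and the 1 of 8 at TS34 (10.5%). In the XX steps the counts were 0 of 8 from TS13 to TS24 (1.21%; 1 at an unadjusted p under 0.05, Emx2), 1 of 8 from TS24 to TS34 (8.87%) and 2 of 8 from TS13 to TS34 (17.5%). The second gene of that last count was Foxd1, at -0.71 ± 0.25 (adjusted p = 0.0439), whose XX arrays read 6.46, 6.69 and 6.29 at TS13 and 6.17, 5.64 and 5.50 at TS34; the call was lost under 7 of 15 settings, among them quantile normalization (adjusted p = 0.07). In the XY steps the counts were 1 of 8 (1.50%), 1 of 8 (2.73%) and, from TS13 to TS34, 0 of 8 (8.13%; 1 at an unadjusted p under 0.05, Lhx1). The change of the germ cell sex difference from TS13 to TS34 was called for 1 of 8 (3.69%).

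Lhx2, the closest relative of Lhx9 in the set, gave no call in any of the 24 comparisons between 2 groups. Its values ran from 6.17 to 7.41 over the 35 arrays, above the 25th percentile of the array on all of them and in the upper quartile on none. Group means lay between 6.49 and 7.06, no 2 neighbours in their order were separated, and the sex differences in supporting cells, -0.30 to 0.32, had 95% limits of -0.71 and 0.74. The supporting arrays of the sexes were apart at TS13, lower in XY (adjusted p = 0.821), and at TS24, higher in XY (adjusted p = 0.382). With 3 arrays in each group, such a separation is weak evidence of a difference. So where Lhx9 differed 16.9-fold at TS24, the Lhx2 difference was 0.32 in the other direction and not called.

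Tcf21, which codes for a basic helix-loop-helix factor of urogenital mesenchyme, was also low and level on the 35 arrays, from 5.42 to 7.39, with group means of 5.94 to 6.67. In supporting cells at TS34 the XY arrays read 6.72, 6.62 and 6.67 and the XX arrays 6.26, 6.01 and 6.11. The groups did not overlap, and the difference of 0.54 ± 0.25 was not called (adjusted p = 0.16; called at 0.00511 in a fit of those 2 groups alone). In the order of the 12 group means no neighbouring groups of Tcf21 were separated.

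Pax2 and Pax8, which code for paired-domain factors of the nephric lineage, were measured above the array median on 35 and 27 of the 35 arrays. Pax2 ran from 6.96 to 8.02 and gave no call in the 24 comparisons between 2 groups, although quantile normalization (-0.43, adjusted p = 0.0354) and median centring (-0.44, adjusted p = 0.032) called it lower in germ cells in XX at TS34. Its sex differences were -0.01 to 0.17 in supporting cells and 0.04 to 0.37 in germ cells. Pax8 ran from 6.24 to 7.63 and gave 1 call, a drop of 0.64 ± 0.21 in XY supporting cells from TS13 to TS34 (adjusted p = 0.0453), where the arrays read 7.63, 7.14 and 7.03 and then 6.47, 6.56 and 6.87. That call was lost under 5 of 15 settings, while the XY change from TS13 to TS24 (-0.55, adjusted p = 0.0714) was called after quantile normalization (-0.73, adjusted p = 0.00604). Of 19 further markers of mesonephric epithelium, 1 was called between the sexes in supporting cells at TS13 (3.77% of all genes), the calcium-binding protein gene Calb1, lower in XY. At TS24 5 were called (15.3%), Eya1 and Gfra1 higher and Calb1, Krt7 and Npnt lower, and at TS34 4 (14.0%), Eya1 higher and Calb1, Krt18 and Npnt lower. The list median was -0.07, -0.04 and -0.10 at the 3 stages.

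Across cell types, Lhx9 and Emx2 were lower in germ cells than in supporting cells in each group in which the supporting arrays were high. In XX, Lhx9 was lower in germ cells by -4.51 ± 0.26 at TS13, -3.68 ± 0.29 at TS24 and -3.55 ± 0.26 at TS34, and Emx2 by -3.66 ± 0.22, -3.11 ± 0.24 and -3.32 ± 0.22, with adjusted p of at most 5.92e-15. In XY they were lower at TS13, by -2.84 ± 0.26 and -2.42 ± 0.22 (adjusted p = 6.68e-13 and 2.96e-13). At TS24 Lhx9 differed by -0.57 (adjusted p = 0.0972) and at TS34 by 0.16 (adjusted p = 0.699), and neither was called, although at TS24 the XY supporting arrays still lay above the XY germ arrays. Emx2 differed by -0.48 at TS24 (adjusted p = 0.0852; 0.0169 after quantile normalization) and by -0.60 ± 0.22 at TS34 (adjusted p = 0.0305), the latter lost under 5 of 15 settings. In germ cells Emx2 lay above the array's 25th percentile on 6 of 17 arrays, so its level there was close to the bottom of the measured range.

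Foxd1 was lower in germ cells at TS13 alone, by -2.75 ± 0.25 in XX (adjusted p = 4.35e-13) and by -0.97 ± 0.25 in XY (adjusted p = 0.00167). The XY call was lost without supporting XY TS13 replicate 1 (-0.66, adjusted p = 0.0554), the highest of its group. Lhx1 went the other way and was higher in germ cells in 5 of 6 groups, by 1.06 to 2.40, with the widest gap in XY at TS24 (5.28-fold, adjusted p = 1.21e-12). In XX at TS34 its difference of 0.45 was not called (adjusted p = 0.143). Members called were 4 of 8 in XX TS13 (30.4% of all genes), 3 in XX TS24 (27.9%), 2 in XX TS34 (30.1%), 4 in XY TS13 (32.4%), 1 in XY TS24 (31.9%) and 2 in XY TS34 (28.9%). Under quantile normalization and median centring alike the counts became 5, 3 and 3 in XX and 5, 3 and 3 in XY, in the order of the stages. The added calls were lower in germ cells: Pax8 at TS13 in both sexes, Pax2 in XX at TS34, Emx2 in XY at TS24, and Tcf21 in XY at TS24 (-0.56, adjusted p = 0.0421, with quantile normalization) and TS34 (-0.64, adjusted p = 0.0219).

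Averaged over the 6 pairs of groups, 5 of 8 members differed between cell types where 53.2% of all genes did. Lhx9 (-2.50 ± 0.11), Emx2 (-2.26 ± 0.09) and Foxd1 (-0.66 ± 0.11) were lower in germ cells and Lhx1 was higher (1.44 ± 0.09). Tcf21 had -0.26 ± 0.10 (adjusted p = 0.0301), a call lost without any 1 of 6 arrays: germ XX TS13 replicate 3, germ XY TS13 replicate 2, supporting XX TS13 replicate 3, supporting XY TS24 replicate 1, germ XX TS34 replicate 3 and germ XY TS34 replicate 1 (adjusted p = 0.0503 to 0.0799). With all 36 arrays its difference was 0.0041 (adjusted p = 0.99), since the library labelled germ XX TS24 replicate 3 held Tcf21 at 10.83. Pax2 (-0.18) and Pax8 (-0.16) were not called in this comparison, and both were called lower in germ cells after quantile normalization (adjusted p = 0.000599 and 0.00492).

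A direct contrast of the sex difference in germ cells with that in supporting cells, added after the values had been seen, was called for Lhx9 and Emx2 at each stage, with Foxd1 at TS13 and with Lhx1 at TS24 and TS34. That is 3 of 8 members at each stage, against 1.66%, 9.91% and 12.8% of all genes. For Lhx9 the contrast had values of 1.67 ± 0.37 (TS13, adjusted p = 0.00616), 3.11 ± 0.39 (TS24, adjusted p = 3.32e-08) and 3.71 ± 0.37 (TS34, adjusted p = 4.65e-11). With all 36 arrays it was 1.67 (adjusted p = 0.643), 1.81 (adjusted p = 0.135) and 3.71 (adjusted p = 0.000489). The mouse line differs between the sexes in the supporting cells of the later 2 stages and not in the germ cells, so this contrast holds the line too.

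Among the germ arrays 1 further value stood out, that of Lhx9 on germ XX TS24 replicate 2. Lhx9 read 8.05 there and 6.36 on replicate 1, while the 3 XY arrays of the stage read 6.24, 6.10 and 6.36. Replicate 2 also had the higher Wt1, 8.19 against 7.18 on replicate 1, and of the 17 germ arrays it had the highest Wt1, Emx2 (5.97) and Foxd1 (6.79). It was not the highest for 4 other somatic genes read beside them: Gata4 stood at 7.10 (highest germ array 7.84), Nr5a1 at 6.90 (7.77), Kitl at 6.33 (6.80) and Pdgfra at 6.96 (7.47). Replicate 1 read lower than replicate 2 for all 4, with Gata4 at 6.92, Nr5a1 at 6.78, Kitl at 5.71 and Pdgfra at 6.75. The part of other cells in the Lhx9 value was not tested. The XY minus XX difference of Lhx9 in that comparison was -0.97 ± 0.29 (adjusted p = 0.0703). It was -0.12 without replicate 2 (adjusted p = 0.906), -1.81 without replicate 1 (adjusted p = 0.000337) and -2.28 with all 36 arrays (adjusted p = 0.00924), so its size and its call turned on which XX libraries were included.

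**Figure D3:**
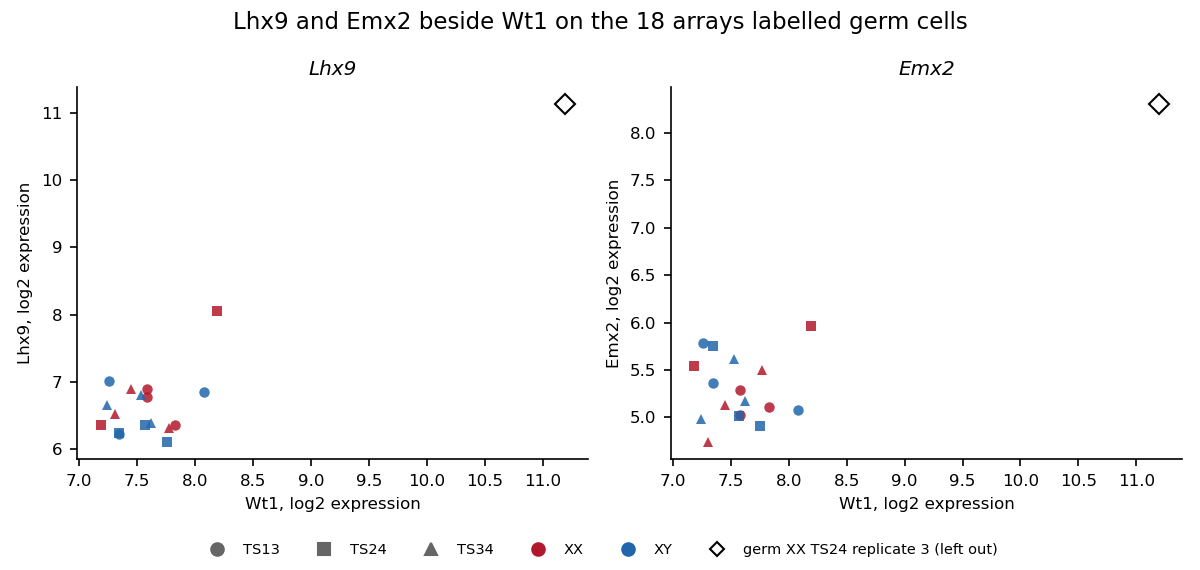
Log2 expression of Lhx9 (left) and Emx2 (right) on the vertical axis against Wt1 on the horizontal axis for the 18 arrays labelled germ cells; colour gives sex, shape gives stage, and the open diamond is the left-out library. The left-out library sits alone at Wt1 11.19, with Lhx9 at 11.12 and Emx2 at 8.30, and germ XX TS24 replicate 2 has the next highest Wt1 (8.19) and Lhx9 (8.05).

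Lhx9 and Lhx1, both LIM-homeodomain genes, were among the members that changed, so the genes of the cofactors that LIM-homeodomain proteins bind were read beside them, as a list of 10 tested genes. In supporting cells 2 of 10 were called between the sexes at TS13 (1 higher in XY, 1 lower; 3.77% of all genes), 3 at TS24 (1 higher, 2 lower; 15.3%) and 3 at TS34 (1 higher, 2 lower; 14.0%), with list medians of -0.19, 0.05 and -0.28. Ldb2, which codes for a LIM-domain-binding cofactor, read 7.38, 7.56 and 7.18 in XX supporting cells at TS13, 10.36, 9.86 and 9.46 at TS24 and 11.02, 10.31 and 10.74 at TS34. In XY supporting cells it stayed between 7.37 and 8.75 on the 9 arrays. So Ldb2 and Lhx9 were both higher in XX than in XY at TS24 and TS34, but within XX Ldb2 rose by 2.52 ± 0.30 from TS13 to TS24 (adjusted p = 1.89e-08), while Lhx9 did not rise.

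The XY minus XX difference of Ldb2 was -1.49 ± 0.30 at TS24 (adjusted p = 0.000128) and -2.62 ± 0.30 at TS34 (adjusted p = 7.1e-10). Lmo4, which codes for a LIM-only protein, was higher in XY at all 3 stages, by 1.65 ± 0.29 at TS13 (adjusted p = 6.39e-05), 1.47 ± 0.29 at TS24 (adjusted p = 0.000101) and 1.45 ± 0.29 at TS34 (adjusted p = 0.000134). Ssbp2, which codes for a partner of the LIM-domain-binding proteins, was lower in XY by -0.80 ± 0.24, -0.89 ± 0.24 and -0.99 ± 0.24 (adjusted p = 0.0425, 0.00499 and 0.00169). In germ cells 1 of the 10 was called between the sexes at TS34 (10.5% of all genes), Lmo4, lower in XY at -0.87 ± 0.29 (adjusted p = 0.039), and none by limma at TS13 (2 at an unadjusted p under 0.05) or TS24 (3). The other LIM-homeobox genes tested were Lhx3, Lhx4, Lhx6, Lhx8, Isl1, Isl2 and Lmx1b. They gave 0 calls by limma in 126 combinations of gene and sex or stage comparison, with 5 at an unadjusted p under 0.05. In those comparisons 0.0285% to 17.5% of all genes were called. Between cell types, Isl2 was called higher in germ cells in XY at TS13 (32.4% of all genes) and Isl1 in XY at TS34 (28.9%). Averaged over the 6 pairs of groups, both were called higher in germ cells (53.2%).

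**Figure D4:**
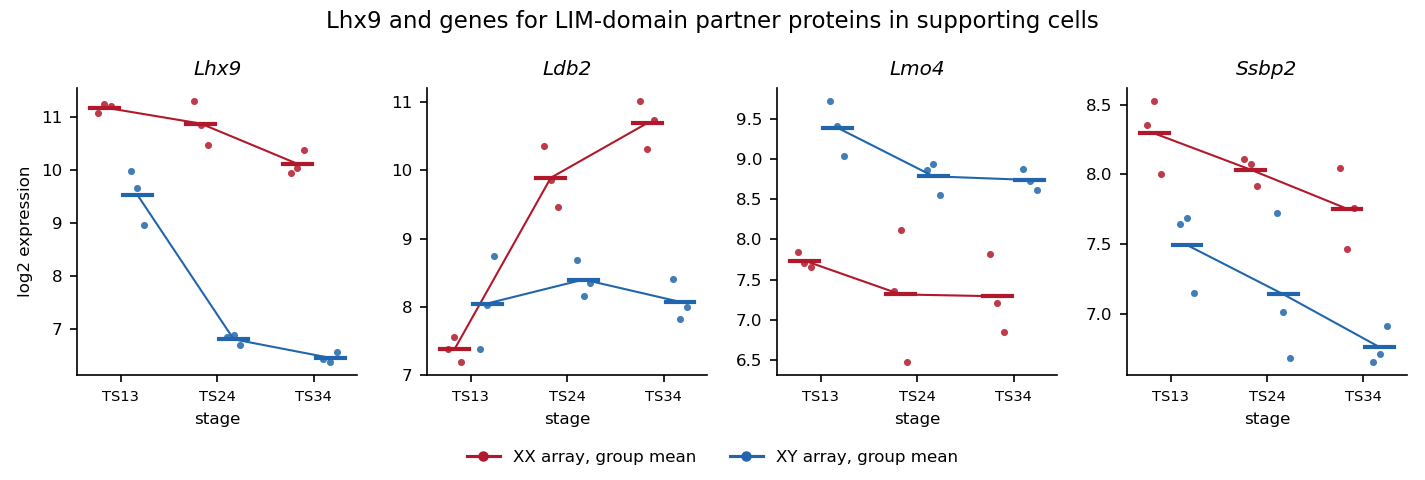
Log2 expression of Lhx9 and of the cofactor genes Ldb2, Lmo4 and Ssbp2 (vertical axis, own scale in each panel) by stage (horizontal axis) in supporting cells; points are arrays, short bars are group means joined by lines, red is XX and blue is XY. Lmo4 is higher and Ssbp2 lower in XY at each stage, and Ldb2 climbs from 7.18 to 7.56 at TS13 to 10.31 to 11.02 at TS34 in XX only.

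No other tested gene of the gonadal primordium list was called lower in XY supporting cells at TS24 or TS34, where Lhx9 and Emx2 were. At an unadjusted p under 0.05, in either direction, the list held 4 genes at TS24 and 4 at TS34. Of 14 tested, 2 were lower in XY supporting cells at TS13 (3.77% of all genes), 2 higher at TS24 (15.3%) and 3 higher at TS34 (14.0%), with list medians of -0.01, 0.23 and 0.14. Those lower at TS13 were Gadd45g, a stress-response gene that acts ahead of Sry (-0.89 ± 0.22, adjusted p = 0.00822), and the insulin receptor gene Insr (-0.95 ± 0.28, adjusted p = 0.0425). Nr5a1 was higher in XY at TS24, by 1.03 ± 0.22 (adjusted p = 0.000315), the stage at which Lhx9 was lower by -4.08. Nr5a1 was not called at TS13, nor at TS34, where Lhx9 was lower by -3.67. From TS24 to TS34 Nr5a1 was called lower in XY supporting cells. Sex and mouse line cannot be told apart in the TS24 and TS34 comparisons. Gadd45g fell with Foxd1, by 1.71 ± 0.22 in XX (adjusted p = 1.68e-07) and 1.15 ± 0.22 in XY (adjusted p = 0.000115) from TS13 to TS24.

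Markers of other cell types were read beside the sex difference at TS13, where the lines are the same. Of 16 interstitial and stromal genes tested, 4 were called, against 3.77% of all genes. The 2 higher in XY supporting cells were the growth factor receptor gene Pdgfra (1.80 ± 0.25, adjusted p = 1.24e-06) and the Hedgehog receptor gene Ptch1 (0.92 ± 0.22, adjusted p = 0.0066). A further 2 were lower, the nuclear receptor genes Nr2f1 (-0.99 ± 0.23, adjusted p = 0.0051) and Nr2f2 (-1.13 ± 0.27, adjusted p = 0.00548). The mean over the list was 7.52 to 7.64 on the XX arrays and 7.41 to 7.56 on the XY arrays, and 16 of its 17 genes with a probe set exceeded the 25th percentile on each of the 6. From TS13 to TS24, the step over which Foxd1 fell, 2 of the 16 fell in XX, Nr2f1 and Pdgfra (list median 0.05; 3.36% of all genes called), and in XY 4 fell and Ptch1 rose (list median -0.05; 16.8%). The part of such cells in the Foxd1 values was not tested. At TS24 the counts were 2 higher and 6 lower of the 16 (15.3% of all genes called), with list means of 7.23 to 7.63 in XX and 7.18 to 7.28 in XY, and at TS34 1 higher and 1 lower (14.0%). The part of such cells in the Lhx9 and Emx2 values was not tested either. Of 10 Sertoli markers 5 were higher in XY at TS13, 10 at TS24 and 10 at TS34, and of 9 pregranulosa markers 5 were lower and 1 higher at TS13, 6 lower at TS24 and 7 lower at TS34, where all genes were called in 3.77%, 15.3% and 14.0% of cases.

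Tcf21 had no called sex difference, and the genes of proteins that TCF21 pairs with or that compete for those partners, 7 of the E-protein and ID families, were read beside it. In supporting cells limma called 0 of 7 at TS13 (0 at an unadjusted p under 0.05; 3.77% of all genes; list median -0.15), 5 of 7 lower in XY at TS24 (15.3%; list median -1.12) and 2 of 7 lower at TS34 (14.0%; list median -0.49), the E-protein genes Tcf4 (-1.43 ± 0.23, adjusted p = 2.27e-06) and Tcf12 (-1.52 ± 0.21, adjusted p = 8.74e-08). In germ cells limma called 0 of 7 at TS13 (2 at an unadjusted p under 0.05; 0.0285%), 3 lower in XY at TS24 (1.96%), and 4 lower and 1 higher at TS34 (10.5%), with the inhibitor gene Id2 at -2.80 ± 0.31 (adjusted p = 1.07e-09). Among 14 other genes of the EMX, PAX, FOXD and TCF21 families limma called 0 between the sexes of supporting cells at TS13 (0 at an unadjusted p under 0.05) and 1 at each later stage, Tcf24, a basic helix-loop-helix gene, higher in XY by 1.32 ± 0.22 at TS24 (adjusted p = 4.99e-06) and 1.60 ± 0.22 at TS34 (adjusted p = 8.91e-08).

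The pattern of Lhx9 over the 12 group means was most like those of Drp2 (Pearson r 0.990), Dclk1 (0.988) and Emx2 (0.986), among 7409 tested genes whose group means spanned at least 1. For Emx2 the nearest genes were E330013P04Rik (0.990), Slc7a2 (0.987) and Lhx9. Over the 6 supporting group means alone the nearest to Lhx9 were Actr6, Tmem171 and E330013P04Rik and the nearest to Emx2 were Ifitm3, Tmem171 and Ptpn4, and Lhx9 and Emx2 correlated at 0.992. For Foxd1 the nearest over 12 groups were Gbp2b (0.969), Pcdh20 (0.965) and Il15 (0.963), and over 6 supporting groups Tdrd5, Chst4 and Plac8. For Lhx1 they were Actn2 (0.968), Lefty2 (0.968) and Rnmt (0.966). These correlations describe groups read from the same arrays and carry no test.

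The genes next to the members on the chromosome were read as well. On either side of Emx2 the neighbours differed in direction: Rab11fip2, after it, was lower in XY supporting cells by -1.03 ± 0.23, -1.51 ± 0.23 and -1.42 ± 0.23 at the 3 stages (adjusted p = 0.00263, 1e-06 and 4.24e-06), and Pdzd8, before it, had 0.74, 0.71 and 0.60 (adjusted p = 0.0811, 0.0361 and 0.0963), a call for higher in XY at TS24. Dennd1b, after Lhx9, was lower by -0.94 ± 0.22, -0.78 ± 0.22 and -0.75 ± 0.22 (adjusted p = 0.0051, 0.0102 and 0.0144), and Nek7, before Lhx9, had -0.24, -0.90 and -0.67 (adjusted p = 1, 0.0137 and 0.0949). Tmem174, after Foxd1, was lower by -1.33 ± 0.22, -1.47 ± 0.22 and -1.85 ± 0.22. Tmem174 was called at TS13, TS24 and TS34, and Foxd1 was called at TS13 but at neither TS24 nor TS34. Btf3, before Foxd1, had -0.04, 0.71 and 0.67 (adjusted p = 1, 0.0382 and 0.0612), a call for higher in XY at TS24. The neighbours of Lhx1, Aatf and Mrm1, were not called between the sexes of germ cells at any stage, and had differences of 0.64 (adjusted p = 0.0758) and 0.24 (adjusted p = 0.582) at TS34, where Lhx1 had 1.76.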

How the data were processed

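RNA of sorted germ and supporting cells was measured on 36 arrays. The deposited values are log2 expression per probe set, made by the authors with RMA, per the submitters' processing notes. RMA settings and the definition of probe sets were not given in the sources used here. They were used without further scaling. Of 35557 probe sets, 21789 carried 1 gene symbol, 1621 several and 12147 were not listed; symbols were updated by Entrez identifier to GRCm38.p6, and per gene the probe set with the highest mean was kept. Genes entered the test if above the 25th percentile of values on 3 or more arrays. The 35 arrays were fitted with limma 3.58.1 in R 4.3.3, with 1 mean per group, eBayes (23 residual and 25.94 prior degrees of freedom), two-sided tests and Benjamini-Hochberg adjustment; every adjusted p is from limma. The number of arrays limits the precision: the median SE of 3 against 3 arrays was 0.211. The procedure was tested on simulated data. Named genes were all members, up to 4 called genes per list and the 3 genes most like a member; the neighbouring genes were added after values were seen. The members and lists were chosen with earlier results of these data known. Alternatives covered the left-out library, scaling, the filter, the probe set rule, variance moderation, the samples fitted, the replicate number and each array left out.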

Additional observations from a re-analysis of the deposited data

Results flagged for a closer look

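The change of the sex difference from TS13 to TS34 (XY minus XX at TS34, less that at TS13) passed the test for 4 genes. In supporting cells it was -2.02 for Lhx9, -1.61 for Emx2 and 1.91 for Foxd1, and in germ cells it was 1.45 for Lhx1. In the supporting cells the XY mouse line differs between those stages, so stage and line cannot be told apart in the first 3 values.

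The sex difference also differed between germ and supporting cells within a stage, in a contrast added after the values had been seen. For Lhx9 the germ cell value minus the supporting cell value came to 1.67, 3.11 and 3.71 at the stages in order, and for Emx2 to 1.24, 2.62 and 2.72. It was 1.78 at TS13 for Foxd1, and 1.23 at TS24 and 1.67 at TS34 for Lhx1. The Lhx1 value at TS24 was lost without germ XX TS24 replicate 2 (0.92, adjusted p = 0.165), and the Emx2 value at TS13 without any 1 of 3 arrays (germ XX TS13 replicate 1, germ XY TS13 replicate 3 or supporting XY TS13 replicate 3).

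The left-out library labelled germ XX TS24 replicate 3 lay above all 17 other germ arrays for 5 of the 8 genes. It held Lhx9 at 11.12, Emx2 at 8.30, Tcf21 at 10.83, Foxd1 at 7.86 and Pax8 at 7.27. For Tcf21 it lay above every one of the 35 other arrays, supporting cells included, whose highest value was 7.39. The mean over 17 interstitial and stromal genes was 8.59 on it, against at most 7.64 elsewhere, and Pdgfra stood at 10.60.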

How the results depend on the processing

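Of 58 combinations of member and comparison that were called, 41 were called under every alternative run for them. Of 1174 alternative values, which follow those 58 and 6 uncalled differences discussed in the text, 1115 kept direction and side of the threshold, 49 lost their call, 9 gained one and 1 reversed, the cell type difference of Tcf21 with all 36 arrays (0.0041). With all 36 arrays the germ cell sex calls were 4 in place of 2, and the calls for a change of the sex difference 2 in place of 4. Leaving out 1 array moved the count of germ cell stage calls, 5, to 2 to 7, with 2 without germ XX TS34 replicate 3 and 3 without germ XX TS13 replicate 1; the other counts stayed at 7 to 8 (supporting sex), 2 to 3 (germ sex), 9 to 11 (supporting stages), 4 to 4 (change of the sex difference) and 20 to 23 (cell type). Over all members and comparisons, quantile normalization and median centring each gained 10 calls and lost 1, and each gave 29 cell type calls in place of 21. Replicate numbers shared across groups were checked for pairing. In none of 24 comparisons did every pair correlate above 0.1 (range -0.51 to 0.20). With 2 or 3 pairs in a comparison, this rule cannot exclude pairing or a shared batch. With the replicate number as a block the counts were 7, 2, 10, 5, 4 and 22 in place of 7, 2, 10, 5, 4 and 21. Values near the lower quartile of an array, 5.17 to 5.60, cannot resolve small differences, as for Emx2 in germ cells.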
